A study of Mus musculus with 4 samples.

Results

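Acetylation of histone H3 at lysine 27 (H3K27ac) was examined at 9 genes of mature oligodendrocytes: Mbp, Mog, Mag, Mobp, Cnp, Cldn11, Opalin, Ermn and Myrf. They were taken by name from the GENCODE M21 annotation, which holds 21853 protein-coding genes, and each was studied as its gene body with 50 kb to each side. Of the 88930 peaks of the replicated list, 140 lay in these loci, as did 157 of the 102643 peaks called from both pools together, 151 of the 94836 of pool C and 109 of the 63623 of pool D. The tissue was the layer of hippocampus of male B6CASTF1/J mice, an F1 hybrid of C57BL/6 and CAST, at an age of 2 months, with no treatment named. Pools C and D, each of 7 biosamples and sequenced as 2 technical replicates, were the unit of replication, so every statement on replication rests on 2 pools and no test over samples could be made. The series has 1 group and no control arm, and the question it poses for these genes is where in each locus the mark was found and whether both pools show it.

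Oligodendrocytes wrap axons of the central nervous system in myelin, a stack of compacted membrane rich in a small set of lipids and proteins. H3K27ac lies on nucleosomes beside active promoters and on active enhancers, so in a cell type its peaks outline the regulatory DNA in use. In a piece of tissue the peaks add up over all cells, and fewer cells of a type and less mark per cell cannot be told apart. Myelin genes are switched on late in the lineage by factors such as MYRF and SOX10, after oligodendrocyte precursors stop dividing.

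The sequences below are shown because 3 of the loci have their strongest distal marked region at these places and because 3 of the promoters hold motif letters described further on. All are C57BL/6 reference bases (GRCm38, from RefSeq), not reads of the hybrid mice. Each distal window holds 300 bases around the summit of the strongest replicated peak over 1 kb from any annotated transcription start site (TSS) and found in both pools, written on the plus strand. Capitals mark CTGGCAC, the core letters bound by MYRF, or ACAAAG, a core bound by SOX proteins, on either strand (GTGCCAG and CTTTGT are their reverse complements).
Mog upstream window (chr17:37028729-37029028, plus strand): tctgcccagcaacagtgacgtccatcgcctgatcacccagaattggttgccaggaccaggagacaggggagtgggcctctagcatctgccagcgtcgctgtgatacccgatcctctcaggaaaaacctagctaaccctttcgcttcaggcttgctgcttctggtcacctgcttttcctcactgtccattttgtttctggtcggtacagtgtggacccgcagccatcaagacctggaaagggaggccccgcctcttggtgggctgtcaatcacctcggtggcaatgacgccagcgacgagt
Myrf upstream window (chr19:10276742-10277041, plus strand): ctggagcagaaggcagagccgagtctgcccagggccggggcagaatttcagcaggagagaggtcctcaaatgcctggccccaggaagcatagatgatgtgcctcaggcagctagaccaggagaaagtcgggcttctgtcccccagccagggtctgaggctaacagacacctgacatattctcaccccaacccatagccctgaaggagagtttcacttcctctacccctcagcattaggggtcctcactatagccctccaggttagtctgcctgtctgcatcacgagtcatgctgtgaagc
Cldn11 downstream window (chr3:31213405-31213704, plus strand): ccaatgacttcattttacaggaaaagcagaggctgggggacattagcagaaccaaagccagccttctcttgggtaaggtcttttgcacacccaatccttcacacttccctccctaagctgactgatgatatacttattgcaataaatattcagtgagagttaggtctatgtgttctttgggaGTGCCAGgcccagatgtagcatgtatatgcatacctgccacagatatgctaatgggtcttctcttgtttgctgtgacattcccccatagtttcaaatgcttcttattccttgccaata
The promoter windows are the 250 bases before the main TSS, written in the direction of the gene.
Mobp promoter (chr9:120149457-120149706, plus strand): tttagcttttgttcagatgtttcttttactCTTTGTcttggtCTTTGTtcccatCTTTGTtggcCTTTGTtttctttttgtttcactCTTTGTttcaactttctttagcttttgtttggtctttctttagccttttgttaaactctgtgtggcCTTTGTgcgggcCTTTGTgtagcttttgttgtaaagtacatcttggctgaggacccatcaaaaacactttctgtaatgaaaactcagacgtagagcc
Cnp promoter (chr11:100574654-100574903, plus strand): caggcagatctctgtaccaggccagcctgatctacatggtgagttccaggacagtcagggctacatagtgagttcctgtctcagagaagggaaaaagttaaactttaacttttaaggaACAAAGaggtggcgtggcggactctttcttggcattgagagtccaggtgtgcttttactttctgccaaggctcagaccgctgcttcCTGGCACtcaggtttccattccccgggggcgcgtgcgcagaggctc
Opalin promoter (chr19:41077114-41077363, minus strand): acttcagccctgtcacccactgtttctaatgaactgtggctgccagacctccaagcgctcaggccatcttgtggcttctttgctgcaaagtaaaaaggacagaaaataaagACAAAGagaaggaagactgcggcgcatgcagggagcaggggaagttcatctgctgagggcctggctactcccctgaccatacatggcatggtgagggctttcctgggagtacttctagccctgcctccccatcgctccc

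A promoter peak, meaning one within 1 kb of a TSS of a coding transcript, was found at all 9 genes in the replicated list, and their promoter signals were low. Over all protein-coding genes 60.8% had such a peak. The pool C list marked 9 of 9, beside 61.4% of all genes, and the pool D list 7 of 9, beside 57.1%, with Cldn11 and Opalin missing. Of all genes marked in pool C, 92.8% were marked in pool D too. Both-pool calls gave 9 of 9, beside 61.7%. The deposited signal is the authors' value per peak and was read only within a list. In the replicated list the median over the 9 genes was 6.13, from 4.71 at Opalin to 14.2 at Mbp, whereas the median over the 13290 genes with a promoter peak was 13.8. Ranked among those 13290 genes, the 9 lay at the 7.13th to 52.9th percentile with a median of 13.0, and 7 of 9 lay under the 20th. The median percentile was 14.8 in pool C and 11.5 over the 7 genes marked in pool D, so the low rank was seen in each pool.

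**Figure D1:**
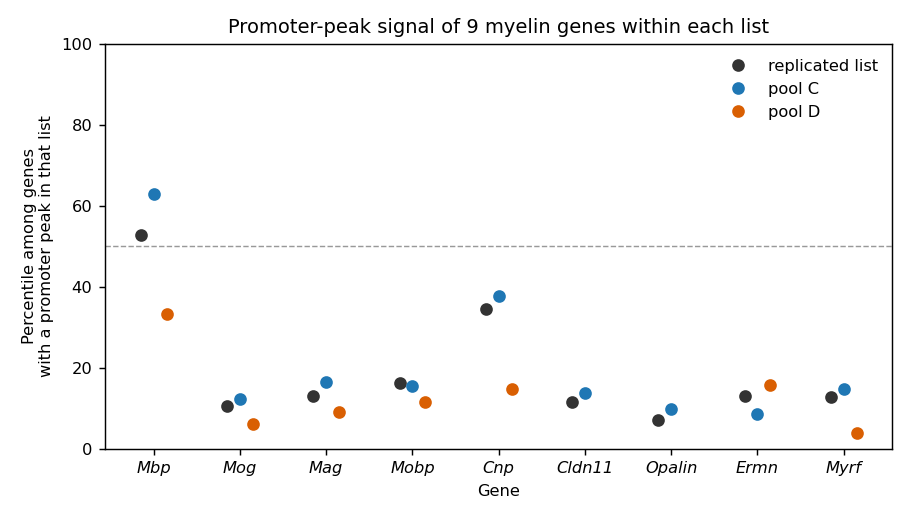
Percentile of the strongest promoter-peak signal (vertical axis, 0 to 100) of each gene among all genes with a promoter peak in the same list, for the replicated list, pool C and pool D; the dashed line is the median gene. In the replicated list 8 of 9 genes lie under the line and Mbp lies at 52.9, while Cldn11 and Opalin have no pool D point.

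Mbp encodes myelin basic protein, which holds the inner faces of the myelin membrane together. The gene spans chr18:82475146-82585637 on the plus strand, and its 16 transcripts start at 3 clusters of TSSs. The first cluster, at chr18:82475146-82475370, starts the long golli transcripts, which are also known from neurons and immune cells, and a peak of 1893 bp covered it with a signal of 14.2. That peak had a signal of 18.6 in pool C and 8.10 in pool D, and it is the one that sets the promoter rank of Mbp above. The second cluster, at chr18:82554470-82554580, starts 11 coding transcripts, among them the main transcript with its TSS at chr18:82554530, which encodes the classic myelin form. This cluster lay where 2 wide peaks meet, chr18:82546597-82554438 (7842 bp, signal 8.67) on its upstream side and chr18:82554531-82560777 (6247 bp, signal 6.46) on its downstream side, and 2 of its 7 TSSs were inside the downstream peak. The main TSS fell in the 92 bp between the peaks, and in pool C and pool D it fell in gaps of 112 and 433 bp. The third cluster, a single noncoding transcript at chr18:82563262, had no peak within 1 kb in any of the 4 lists.

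The strongest mark of the Mbp locus was at neither start. It was a peak of 6259 bp in an intron of the golli transcripts, chr18:82532690-82538948, with its summit 18.6 kb before the main TSS and a signal of 18.2 (−log10 q 139). In pool C it had a signal of 19.9, and in pool D the same stretch was split into narrower peaks, the strongest with a signal of 13.6. Of the 65346 replicated peaks over 1 kb from every annotated TSS it ranked 223rd by signal, and the strongest peak there ranked 279th of 70566 in pool C and 219th of 41990 in pool D. A second intronic peak, 31.4 kb before the main TSS, had signals of 13.9 in the replicated list, 15.7 in pool C and 9.40 in pool D and lies within 1 kb of a pseudogene TSS. Between the golli start and the main start, 79.4 kb apart, 21 replicated peaks covered 45.8% of the DNA, a share that was 33.9% in pool D. No TSS of another coding gene had a peak in this locus, and 25 of its 32 replicated peaks lay at an Mbp start or inside the gene. All 3 replicated peaks over 5 kb that lay at or inside a member gene were in Mbp, and over all replicated peaks 2.16% were that wide.

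Mog encodes myelin oligodendrocyte glycoprotein, an immunoglobulin-like protein on the outer face of the sheath (chr17:37010743-37023398, minus strand). Its promoter peak was modest, with a signal of 5.55 in the replicated list, 6.77 in pool C and 4.36 in pool D. The strongest peak of the locus lay 5.48 kb before the gene, at chr17:37027652-37030531, with a signal of 26.9 (−log10 q 334) over 2880 bp, and its summit window is the Mog upstream window printed above. Pool C gave it a signal of 26.9 and pool D 17.7. It ranked 33rd of the 65346 replicated peaks away from annotated TSSs, 58th of 70566 in pool C and 51st of 41990 in pool D. The printed window is 57.3% GC and has 13 CG pairs, an observed-to-expected CG ratio of 0.530, where the median promoter of the genome has 0.553. The next 4 strongest windows of the 9 loci away from TSSs had ratios of 0.00 to 0.212. None of the 8 motifs searched was in it. Inside Mog, an intronic peak 4.55 kb after the TSS had a signal of 11.0, or 12.7 in pool C, above the promoter in both lists. The other strong peaks of the locus, 19.7 and 17.2, lay at starts of Gabbr1, a GABA receptor gene, with its summits 22.9 and 27.6 kb before Mog.

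**Figure D2:**
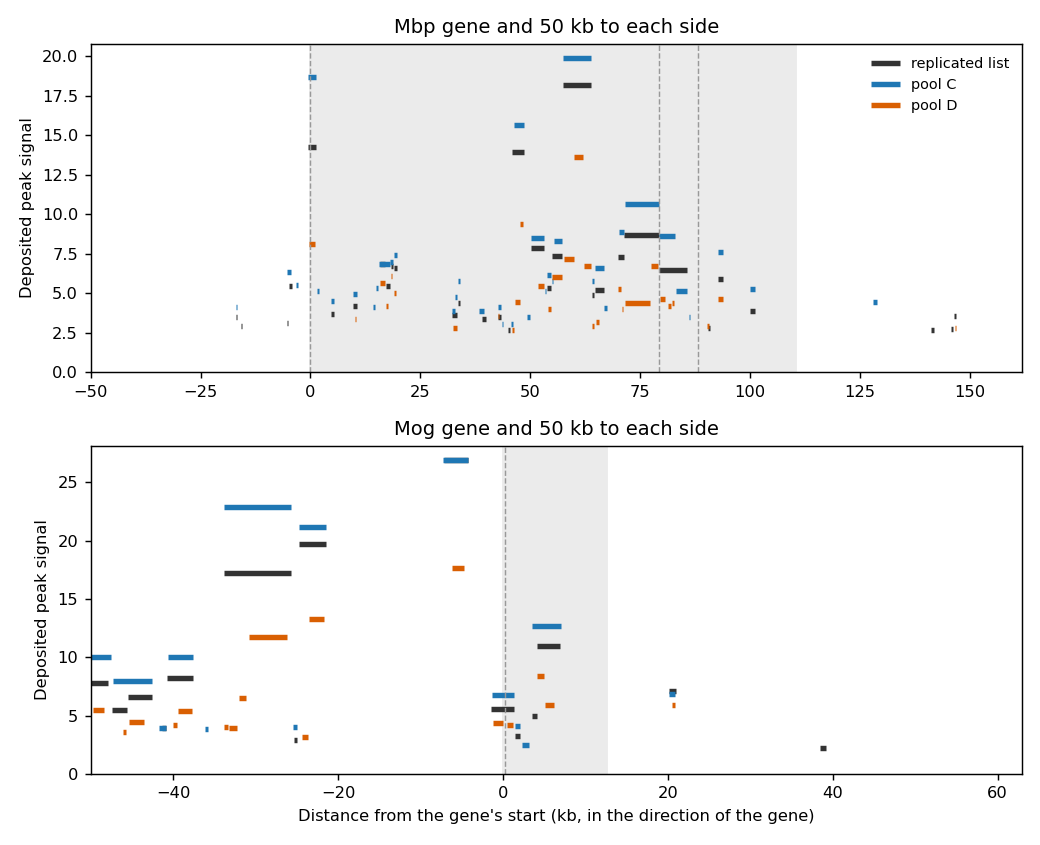
Peaks of the Mbp (upper) and Mog (lower) loci, drawn to scale as horizontal bars at the height of their deposited signal (vertical axis) against distance from the gene start in kb (horizontal axis), for 3 lists; grey shading is the gene and dashed lines are clusters of TSSs. The highest Mbp bars lie 60.7 kb into the gene, and the highest Mog bars lie 5.48 kb before it, where the bar of the replicated list (26.9) is hidden by that of pool C.

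Mag, Mobp and Cnp encode proteins of the parts of the sheath that touch the axon, of compact myelin and of the cytoplasmic channels. Mag (chr7:30899176-30914873, minus strand), whose product sits on the membrane that faces the axon, had a peak over its starts with a signal of 6.13, and 8.0 in pool C, and the pool D list had no peak there. The Mag promoter call in pool D came from another peak, with a signal of 4.82, that lay upstream, 173 bp from the nearest Mag TSS, where the replicated list had a peak of 5.55. Mag had 4 replicated peaks with summits within 3 kb of its start and no peak further inside the gene. The fifth peak of its locus, with a signal of 22.3, lay at the start of Usf2, a transcription factor gene.

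Mobp (chr9:120149707-120181484, plus strand), whose product is a small basic protein of compact myelin, had 3 replicated peaks around its start and none in the rest of its 31.8 kb, where pool C had a weak one of 3.62. The promoter signal was 6.94 in the replicated list, 7.79 in pool C and 5.24 in pool D. The main TSS lay in a gap of 323 bp between 2 replicated peaks, and of 356 bp in pool C. Among all promoters, the 300-base window of Mobp (250 before to 50 after the TSS) was the single one with 7 matches of ACAAAG or more, 1 of 21853. All 7 lie before the TSS, all as CTTTGT in the printed strand, and they lie in a stretch rich in T. A match gives letters and no binding.

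Cnp (chr11:100574904-100591729, plus strand), whose product is the cyclic nucleotide phosphodiesterase of non-compact myelin, had the second highest promoter signal of the 9 in the replicated and pool C lists, after Mbp, with 10.8 and 13.3. In pool D it had 5.75, below the 5.87 of Ermn. The peak was 4999 bp wide and reached from 386 bp before the TSS into the gene. In pool D the mark began 26 bp after the TSS. Replicated peaks covered 60.2% of the gene with 2 kb before it. The printed Cnp promoter holds 1 CTGGCAC and 1 ACAAAG.

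Cldn11, Opalin and Ermn were the 3 genes with the smallest shares of locus peaks found in both pools. Cldn11 (chr3:31149920-31164324, plus strand) encodes the claudin of myelin tight junctions. Its promoter peak began 43 bp after the TSS with a signal of 5.78, and 7.18 in pool C. The pool D list held no peak at its start or inside the gene, and the nearest lay 15966 bp after the TSS. Pool D peaks with summits 16.2, 58.4 and 59.6 kb after the TSS covered less than 50% of the replicated peaks they fell in. By that limit, 10 of the 11 replicated peaks of the locus counted as found in pool C alone. The remaining one, chr3:31212103-31215760, 63.6 kb after the TSS and inside the neighbouring gene Slc7a14, was the strongest of the locus at 9.14, with 10.3 in pool C and 7.13 in pool D. Its printed window holds 1 CTGGCAC, on the minus strand at position 183 counted from the window's first base.

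Opalin (chr19:41061710-41077113, minus strand) encodes a membrane glycoprotein of oligodendrocytes. The replicated list had no peak at its TSS, and the peak that counts as its promoter began 956 bp inside the gene (chr19:41072691-41076157, signal 4.71) with its summit 3.21 kb after the TSS. Pool C had the same peak at 6.08 and a weak peak of 3.28 that ended 107 bp before the TSS. In pool D the nearest peak lay 1504 bp after the TSS, past the 1 kb limit, so the missing call there is one of distance, and 2 pool D peaks (3.99 and 3.69) lay inside the gene. With a TSS window of 500 bp Opalin lost its replicated promoter call as well. A pair of further regions, 4.43 and 9.11 kb before the gene, had replicated signals of 6.71 and 5.78, above the promoter.

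Ermn (chr2:58045113-58052864, minus strand) encodes ermin, a cytoskeletal protein of late oligodendrocytes. Its promoter peak had a signal of 6.13, with 5.74 in pool C and 5.87 in pool D. The main TSS lay in a gap of 283 bp between 2 replicated peaks, while in pool C a peak covered it. Ermn is short, and 8 replicated peaks covered 64.4% of the gene with 2 kb before it. The peaks were weak: those above the median signal of the list covered 7.40%, and in pool D the share was 22.6%.

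Myrf (chr19:10208272-10240748, minus strand) encodes the membrane-bound factor whose cleaved part enters the nucleus and binds myelin genes. Its promoter peak had a signal of 6.11, with 7.56 in pool C and 3.96 in pool D. Its second TSS cluster, at chr19:10217528, was over 11 kb from any peak. Inside the gene the peak 7.50 kb after the start had a signal of 6.48. The strongest peak of the locus lay past the end of Myrf, at a start of another coding gene. Its signal was 29.5 in the replicated list, 33.8 in pool C and 19.9 in pool D. Upstream, a run of peaks lay in the neighbouring gene Dagla, an enzyme of endocannabinoid synthesis. The strongest of them away from TSSs, 36.1 kb before Myrf, had signals of 10.9 in the replicated list, 12.6 in pool C and 8.60 in pool D, and its summit window is printed above. Further on, a peak of 22814 bp reached the Dagla start with a signal of 18.4. Nothing in the peaks says which gene these regions act on.

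**Figure D3:**
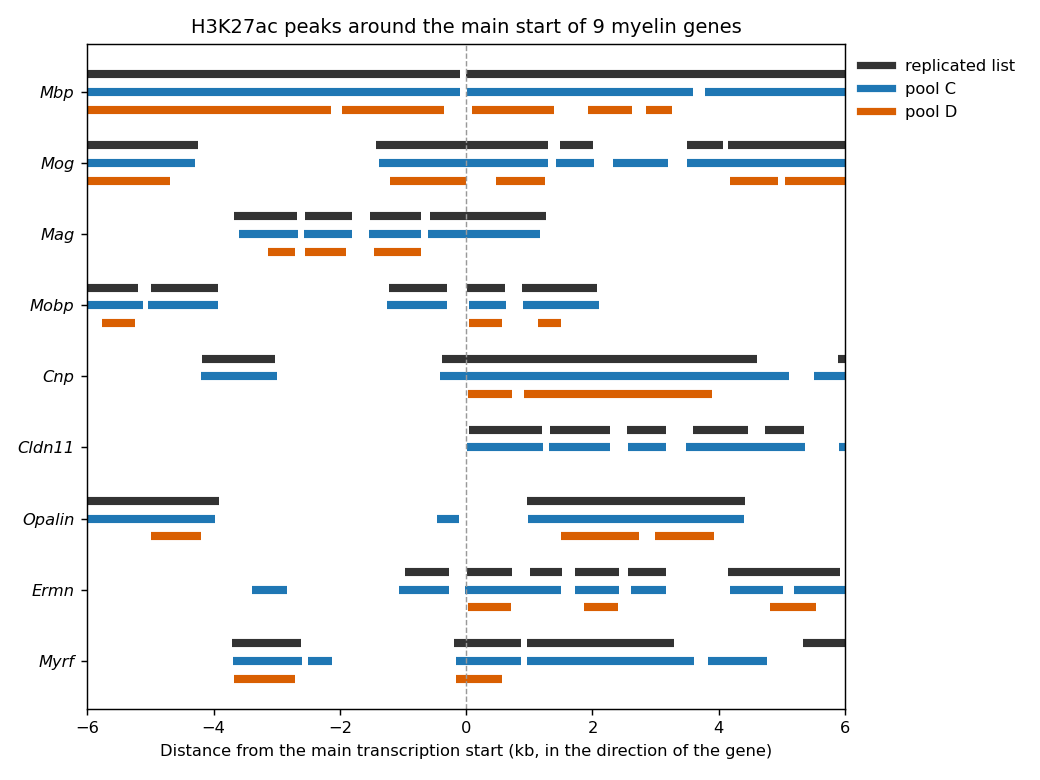
Peaks within 6 kb of the main TSS (dashed line) of each gene, drawn to scale as bars for the replicated list, pool C and pool D, with the direction of the gene to the right. At Mbp, Mobp and Ermn the line falls in a gap of 92, 323 and 283 bp between replicated peaks, and at Cldn11 and Opalin the nearest replicated peak begins after it.

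At the starts, the main TSS lay inside a replicated peak in 4 of 9 genes (Mog, Mag, Cnp and Myrf), beside 48.9% of all protein-coding genes. All 9 had a replicated peak within 1 kb of the main TSS, and over all such genes 83.8% had the main TSS in a peak. In pool C the main TSS lay in a peak in 5 of 9, beside 85.1% of such genes. In pool D it did in 2 of 9, beside 70.0%, and Cldn11 and Opalin had no peak within 1 kb there. A gap with a peak at most 350 bp away on each side held the main TSS in 3 of 9 (Mbp, Mobp and Ermn), beside 3.97% of all genes. In pool C such a gap was found at 2 of the genes, Mbp and Mobp, beside 3.62% of all genes, and in pool D at Mbp alone, with edges 347 and 87 bp away, beside 7.8%. Among genes with a peak within 1 kb of the main TSS the share was 6.81% in the replicated list and 14.3% in pool D, so the 1 of 9 in pool D is near the share of such genes. The 350 bp limit was not among the planned rules. It lies above the distances at these genes, 309 bp at Mobp and 274 bp at Ermn in the replicated list and 347 bp at Mbp in pool D. In the replicated list the downstream peak began 1, 15 and 10 bp after the main TSS of Mbp, Mobp and Ermn. The gap counts are therefore descriptive. Gaps depend on how the peak caller joined neighbouring summits, which the sources used here do not state.

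Although the promoter signals were low, most of the 9 genes were covered by replicated peaks over a larger share than the median gene with a promoter peak, Mobp being the exception. Replicated peaks covered 91106 bp or 33.1% of the summed length of the 9 genes with 2 kb before each. The median gene of the 9 was covered over 25.7%, from 8.03% at Mobp to 64.4% at Ermn. Over all 21853 genes the median was 5.04%, and over genes with a promoter peak 12.2%. All 9 were above the median of all genes in the replicated and pool C lists, and 7 of 9 were in pool D, where Mobp had 2.66% and Cldn11 0% beside a median of 2.71%. Beside the pool D median of genes with a promoter peak, 7.92%, Mag (7.81%) was lower as well. Mbp (40.7%), Mog (45.2%), Cnp (60.2%) and Ermn (64.4%) were above the 90th percentile of all genes, 35.7%. In pool D 3 of 9 were above that list's 90th percentile, 23.4%, with Mbp at 27.6%, Mog at 26.0% and Cnp at 27.7%, while Ermn at 22.6% was not. The total in pool D was 49617 bp, and in pool C it was 99613 bp. Replicated peaks above the median signal covered 12.8% of Cldn11, 7.40% of Ermn and 5.82% of Myrf. The shares of the other genes stayed within 1.5 times of those given. No share over all genes was set beside these values.

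**Figure D4:**
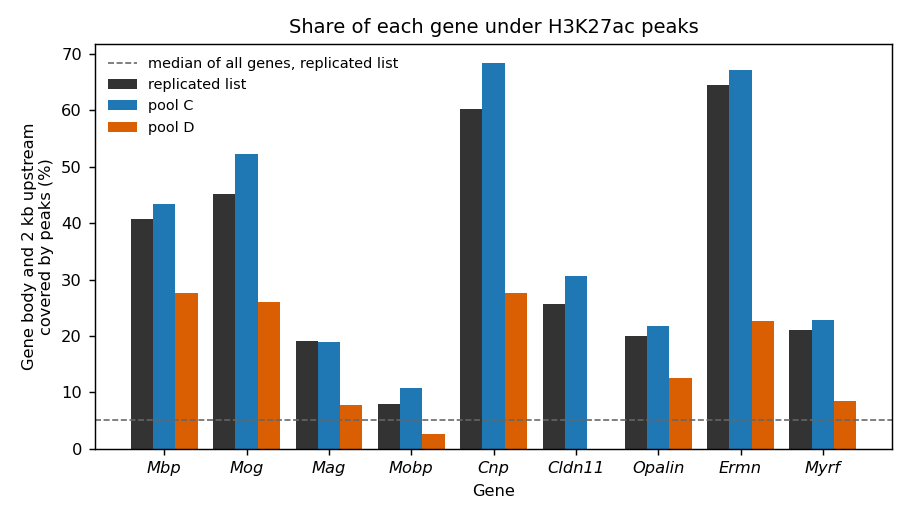
Share of each gene body with 2 kb before it that lay under peaks (percent, bars from 0) in the replicated list, pool C and pool D; the dashed line is the median of all genes in the replicated list, 5.04%. Ermn, Cnp, Mog and Mbp have the highest replicated bars, and Cldn11 has none in pool D.

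Pool support in the loci was uneven. Of the 140 replicated peaks, 58 (41.4%, 95% Wilson interval 33.6 to 49.7%, counting error only) were covered over at least 50% of their length by peaks of each pool list, beside 42.6% of all replicated peaks. Pool C alone covered 69, pool D alone 1 and neither 12. Since stronger peaks were found in both pools more often, the list share was also weighted to how the locus peaks fall over 10 equal classes of signal, which gave 48.7%. By place, 16 of 19 peaks at starts of other coding genes were in both pools, as were 9 of 16 at the genes' own starts, 15 of 43 further inside them and 18 of 62 outside. These places differed in signal, with median percentiles in the replicated list of 91.5, 70.1, 48.3 and 47.4 in that order. No whole-list share was set beside the places or beside the counts for 1 pool alone or neither, so they are descriptive. By gene, the share in both pools ran from 1 of 11 at Cldn11 through 4 of 15 at Ermn and 13 of 32 at Mbp to 3 of 5 at Mag. Pool D had fewer and narrower peaks throughout the genome, 64.5 Mb beside 122.9 Mb in pool C, and read totals were not in the files used here. Whether depth lies behind a missing pool D peak was not tested. Of the 1341 genes in the lowest of 10 classes of pool C promoter signal, which holds Opalin and Ermn, 38.6% were marked in pool D, and in the next class, which holds Mog, Mag, Mobp, Cldn11 and Myrf, 91.3% were.

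**Figure D5:**
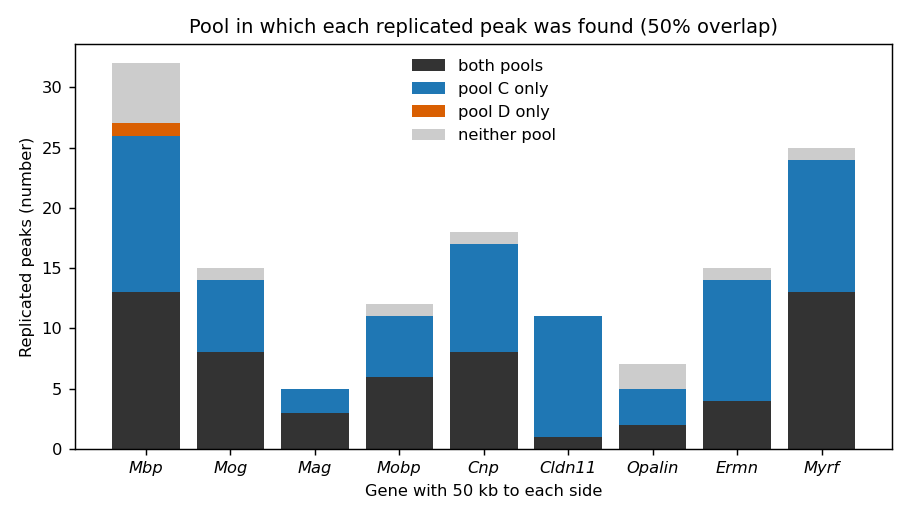
Number of replicated peaks in each gene with 50 kb to each side, stacked by the pool list that covered at least 50% of the peak. Cldn11 has 1 of 11 peaks in both pools, and Mbp has 13 of 32.

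Beside all gene loci, the 9 differed in how densely they were marked. Myrf had 18.9 replicated peaks per 100 kb, Cnp 15.4, Mbp 15.2, Ermn 13.9 and Mog 13.3, all above the 90th percentile of all gene loci (12.7). Cldn11 had 9.61, Mobp 9.11 and Opalin 6.07. Mag, with 4.32, was at the median of 4.33. These counts include peaks at the starts of neighbouring coding genes, 6 of 18 at Cnp and 0 of 32 at Mbp, and peaks elsewhere in such genes. At Myrf, the densest locus, 5 of 25 peaks lay at a start of the gene or inside it, and at Mog 4 of 15 did. Density was ranked in the replicated list alone. In pools C and D the Ermn locus held 15 and 7 peaks, Myrf 27 and 19, and Cnp 19 and 16. Mbp held 38 and 29, and Mog 14 and 17.

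The 8 motifs were searched on both strands in the 300-base summit windows of the 140 locus peaks, with matches that overlap counted separately. CTGGCAC was in 7 of them, 5.0% (2.44 to 9.96%, 95% Wilson interval), beside 6.13% of all replicated windows. ACAAAG was in 25.7% (19.2 to 33.5%), beside 23.0%, and ACAATG, another SOX core, in 13.6%, beside 14.1%. CAGCTG and CATATG, E-boxes of the kind OLIG proteins bind, were in 17.9% and 7.14%, beside 18.8% and 5.56%. TGANTCA, the AP-1 site, was in 10.7%, beside 8.55%, and TATAAA in 9.29%, beside 14.5%. The palindromic NFI site was in 0 of 140, and 0.0292% of all windows held it. For all 8 the share over all windows lay inside the interval of the locus windows. In the 9 promoter windows, ACAAAG was in Cnp, Mobp and Opalin, beside 17.3% of all promoters. CTGGCAC was in Cnp and Opalin, beside 4.79%, where the Opalin match lies after the TSS and outside the printed bases, and TATAAA in none of the 9, beside 13.2%.

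Other genes of the lineage were marked too. For scale, the share of all protein-coding genes marked at a promoter was 60.8% (replicated), 61.4% (pool C) and 57.1% (pool D). Whether any gene list below differs from these shares was not tested. Of 25 further myelin and oligodendrocyte genes, 25 had a promoter peak in the replicated and pool C lists and 23 in pool D, where Hapln2, which encodes a link protein of nodes, was among those with none. Their median promoter percentile was 20.9, and the highest signals were at Nfasc (20.8), a neurofascin gene that neurons also use, Car2 (20.5), a carbonic anhydrase, and Tmem88b (17.9). Of 10 transcription factors of the lineage, 10 had one in the replicated and pool C lists and 9 in pool D, where Nkx6-2 had none. Their median percentile was 24.3, with Sox8 (19.3), Myt1 (18.9) and St18 (14.2) highest. Precursor markers were marked at 4 of 8 genes in the replicated list, with a median percentile of 13.6, at 6 in pool C and at 2 in pool D. Markers of Schwann cells, which make myelin outside the brain, were marked at 6 of 8 genes, with a median percentile of 29.2, of which 1 shares its peak with a neighbouring gene. Markers of hippocampal pyramidal and granule cells were marked at 8 of 8 in each list with a median percentile of 52.9, and astrocyte markers at 8 of 8 with 28.1. Microglial markers were marked at 6 of 8 with a median percentile of 10.9 and choroid plexus markers at 2 of 5 with 10.4, so ranks as low as the 13.0 of the 9 myelin genes were also seen for other cell types.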

How the data were processed

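H3K27ac ChIP-seq was measured in 4 samples from 2 pools, and the deposited data are 4 narrowPeak lists on mm10. The list from both pools and the list from each pool are pseudoreplicated, per the samples' descriptive text. The deposited signal and −log10 p and q values are the authors' own per peak, while aligner, peak caller and scaling are not given in the sources. The depth per sample is unknown, so a missing peak means not detected at this depth. Fragments were 200 to 600 bp, and no read of the hybrid strain was analysed.

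Genes and TSSs came from GENCODE M21, and sequence from the RefSeq GRCm38 genome, whose chromosome ends no peak of the 350032 passed. A promoter peak lay within 1 kb of a coding TSS, a locus was the gene with 50 kb to each side, and a peak was in a pool when at least 50% of it was covered. Tables were handled with pandas 2.3.3 and numpy 2.4.6 in Python 3.11.15, intervals with scipy 1.17.1, reciprocal overlaps with bedtools 2.31.1 and plots with matplotlib 3.10.9, and overlap and motif counting were tested on simulated data. The members, lists and rules were chosen with earlier results of these data known. Named genes were the 9 members and, per further lineage list, those lacking a promoter peak in a list and the 3 highest; an item this rule takes is not reported here. Alternatives were the other lists, each pool left out, a minimum −log10 q of 5, peaks above the median signal and other windows and overlaps. Sequence from chromosome 18 is not printed.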

Additional observations from a re-analysis of the deposited data

How the results depend on the processing

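Of the values that answer a comparison, 72 under the alternatives stayed within 1.5 times of the count, or within the 95% interval of the share, and 10 moved. Of the values for single genes, 109 stayed and 17 moved, of which 14 were covered shares and 3 were promoter calls. The number of the 9 genes with a promoter peak was 7 to 9 with 1 pool left out and 8 with a TSS window of 500 bp. The number for the other 35 lineage genes was 32 to 35 with 1 pool left out. With 1 pool left out the locus peaks numbered 109 to 151, and the covered length was 49617 to 99613 bp. The locus peaks numbered 80 above the median signal and 56 in the gene bodies alone. The share found in both pools was 65.0% above the median signal, beside 75.4% of the whole list. It was 57.9% with an overlap of 1 bp, beside 54.0% of the whole list, and 31.4% with an overlap of 50% in both directions, beside 33.6%. In motif windows of 500 bp the shares were 37.1% for ACAAAG, 22.1% for ACAATG, 29.3% for CAGCTG and 16.4% for TATAAA, where a longer window holds more letters; over all windows they were 35.5%, 22.6%, 28.4% and 24.0%. With 1 pool left out the motif shares were 3.67 to 4.64% for CTGGCAC, 20.2 to 21.9% for ACAAAG, 13.2 to 15.6% for ACAATG, 14.7 to 19.2% for CAGCTG, 4.59 to 5.30% for CATATG, 7.34 to 9.93% for TGANTCA and 8.26 to 10.6% for TATAAA. No paired analysis was possible because the samples form 1 group and the peak lists come from no test. With 2 pools and no read totals, the missing pool D call at Cldn11 cannot be placed between no mark and a mark below detection, whereas at Opalin pool D peaks lay inside the gene past the 1 kb limit.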
